A study of Mus musculus with 4 samples.

Results

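Runx2, Sp7, Alpl, Dlx5 and Ifitm5, 5 of the 32288 features of the count matrices, were followed through single cells of mouse hindlimbs at E14.5. They were chosen by symbol as genes that mark successive steps of the osteoblast lineage, and each was measured over the cell types of the limb, between cells with and without a Gli1-lineage label, and between embryos with and without p21 expressed in cartilage. The embryos of both conditions carried Gli1CreER, a Cre that recombines on tamoxifen in Gli1-expressing cells, R26LSL-tdT, the tdTomato reporter it switches on, and TigreTRE-p21, a doxycycline-dependent p21 transgene. Pan-Cart-p21MOE embryos (called p21 here) also carried Col2a1-rtTA, which drives the p21 transgene from the promoter of a cartilage collagen, and control embryos lacked it. MOE stands for mosaic overexpression, so p21 cells below are cells of these embryos, whether or not they express the transgene. All dams received doxycycline (1 mg/ml in 0.5% sucrose) from E12.5 and tamoxifen (120 µg/g) at E13.5. Hindlimb cells were sorted into tdT+ and tdT- cells in 2 collections, giving 4 droplet libraries. The 2 conditions were mixed in every library and told apart by sex: p21 embryos were male and controls female in collection 1, the reverse in collection 2, and sex-linked transcripts assigned each cell. Sex and condition cannot be told apart within a collection, and the tdT+ and tdT- cells of a collection came from the same pooled embryos. The 8 sums of UMIs (unique molecular identifiers, 1 per captured transcript) compared below therefore stand for 2 embryo pools a condition, and p-values that treat them as independent may be too small.

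Limb bones form on a cartilage template wrapped in perichondrium, from which the first osteoblasts arise while chondrocytes in the centre of the template enlarge. Runx2 is the transcription factor required for osteoblast commitment, and it is also active in enlarging chondrocytes. Sp7 (osterix) is a zinc-finger factor that acts after Runx2, and Dlx5 is a homeobox factor of bone-forming and cartilage cells. Alpl encodes the tissue-nonspecific alkaline phosphatase that degrades pyrophosphate, an inhibitor of mineral growth, and Ifitm5 encodes a small membrane protein of mineralizing osteoblasts.

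The matrices kept 2691 cells of known condition: 225 p21 and 230 control cells in the tdT+ library of collection 1 (tdT+ 1), 91 and 243 in tdT- 1, 651 and 274 in tdT+ 2, and 768 and 209 in tdT- 2. Summed UMIs per library and condition ran from 2039590 (p21 cells of tdT- 1) to 18726922 (p21 cells of tdT- 2). Pairs of libraries shared 3 to 12 cell barcodes, of which 0 or 1 was kept. WPRE, an RNA element carried by both transgenes, was higher in p21 than in control cells in 4 of 4 libraries, from 710 against 517 CPM (UMIs of the gene per 1000000 UMIs) in tdT+ 1 to 660 against 64.4 in tdT- 2, while tdTomato itself ran from 14.9 to 20.7 CPM in the tdT+ sums and from 1.01 to 2.94 in the tdT- sums. Cdkn1a, the endogenous p21 gene, was 47.2 CPM in p21 and 53.9 in control cells of tdT- 2 and higher in p21 cells in the other 3 libraries. Clusters 16 to 19 held p21 cells and no control cells, mostly of a single library each, and were left unnamed.

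In the GRCm38 mouse genome (GENCODE vM21) all 5 genes lie on the minus strand. Runx2 (ENSMUSG00000039153) spans chr17:44495987-44814797 with 13 annotated transcripts, and 3 short antisense genes lie within it on the other strand. Sp7 (ENSMUSG00000060284) lies at chr15:102356606-102367182, Alpl (ENSMUSG00000028766) at chr4:137741733-137796384, Ifitm5 (ENSMUSG00000025489) at chr7:140948958-140950291, and Dlx5 (ENSMUSG00000029755) at chr6:6877805-6882085, close to its partner gene Dlx6 at chr6:6863334-6868568. RefSeq windows (GRCm38.p6, 250 bases before to 50 after a start) were at hand for Runx2, Alpl and Ifitm5. Both strands were searched for the RUNX letters TGTGGT or ACCACA, the GC-box letters GGGCGG or CCGCCC to which Sp factors can bind, and the homeobox letters TAATTG or CAATTA, and no match of 1 motif overlapped a match of another. Of 32851 promoter windows of this length, 16.8% held the RUNX letters, 35.7% the GC box and 8.0% the homeobox letters. The sequences with a match are shown because Runx2, Sp7 and Dlx5 encode factors of these classes. Alpl is shown before its start (chr4:137796385-137796634). For Ifitm5 and Runx2 the RefSeq starts (chr7:140950243 and chr17:44814627) lie within the GENCODE spans, so for Ifitm5 the bases shown stop at the edge of its GENCODE span (chr7:140950292-140950493), and for Runx2 a short site within the span is shown (chr17:44814690-44814719). Each is written along the minus strand with the matching letters in capitals:
Alpl: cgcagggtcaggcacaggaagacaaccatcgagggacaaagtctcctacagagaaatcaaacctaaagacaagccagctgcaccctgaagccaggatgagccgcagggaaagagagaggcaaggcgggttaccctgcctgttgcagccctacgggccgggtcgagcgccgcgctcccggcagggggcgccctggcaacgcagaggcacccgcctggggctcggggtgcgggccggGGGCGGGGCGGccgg
Ifitm5: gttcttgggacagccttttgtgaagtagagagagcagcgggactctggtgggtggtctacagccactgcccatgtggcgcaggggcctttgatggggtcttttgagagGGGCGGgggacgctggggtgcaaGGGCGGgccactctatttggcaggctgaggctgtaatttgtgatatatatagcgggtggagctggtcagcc
Runx2: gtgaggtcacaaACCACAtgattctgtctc

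Positions are first bases counted from the RefSeq start, which is 0. The Alpl window held the GC box at -15 and -10, which overlap in the capitals, and at 0, just after the bases shown. The Ifitm5 window held it at -142 and -119. In the Runx2 window the RUNX letters began at -80, the site shown, and again at 23 and 31 bases after the start. A second annotated Alpl start (chr4:137766476-137766725 before it) held none of the 3 motifs. These matches describe letters in the windows and are no evidence of binding.

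Cells were grouped without using the 5 genes, so that their levels could be read over cell types that they did not define. Groups were named from other markers: 311 cells were perichondrium-like (led by Aspn among its markers), 76 osteoprogenitor-like (6 of 11 markers), 640 proliferative, 154 resting and 85 prehypertrophic or hypertrophic chondrocyte-like, 279 interzone or articular-like and 125 tenocyte-like. The line between proliferative and resting cells moved with Leiden resolution. Of the proliferative cells, 298 formed a cluster with no chondrocyte marker among its leading genes, which included Sorbs2os, Edil3 and Lrp1b. At resolution 2 a cluster of 194 cells with these 3 leading genes was named resting. The osteoprogenitor-like cells were few and uneven, with 13 in tdT+ 1, 2 in tdT- 1, 49 in tdT+ 2 and 12 in tdT- 2, and 60 of the 76 were p21 cells. A library entered a mean only with 5 or more cells of the group, and the order of levels covers the 12 groups with 2 or more such libraries. Of the groups left out of the order, cluster 19 (12 p21 cells of tdT- 2) held 462 CPM of Runx2, 23.8 of Sp7 and 57.2 of Ifitm5, and the endothelial-like cells of tdT- 2 held 14.4 of Ifitm5. Levels are given as CPM within each group of cells and are compared between groups for 1 gene at a time.

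Runx2 was highest in osteoprogenitor-like cells, at 1844 CPM in tdT+ 1, 1938 in tdT+ 2 and 1846 in tdT- 2, a mean of 1876 ± 53 (SD, n = 3 libraries). Perichondrium-like cells followed at 1077 ± 105 (n = 4), with 1141 and 929 in the tdT+ libraries and 1078 and 1161 in the tdT- libraries. The libraries of these 2 groups did not overlap. Prehypertrophic or hypertrophic-like cells held 391 CPM in tdT- 1, 382 in tdT+ 2 and 194 in tdT- 2, and their range overlapped those of the unnamed clusters 9, led by Isl1, and 8. Below them the levels went down through overlapping neighbours to 84.9 in proliferative, 53.0 in tenocyte-like, 18 in interzone-like and 16 in resting chondrocyte-like cells. Perichondrium-like cells supplied 46.4% and osteoprogenitor-like cells 16.1% of the 19360 Runx2 UMIs, from 11.6% and 2.82% of the cells.

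Sp7 had a different order. Osteoprogenitor-like cells held 103 CPM in tdT+ 1, 173 in tdT+ 2 and 146 in tdT- 2. Prehypertrophic or hypertrophic-like cells came next at 61.2 in tdT- 1, 57.3 in tdT+ 2 and 58.4 in tdT- 2, all above the 20.1 to 27.4 of the 4 perichondrium-like values. Proliferative chondrocyte-like cells averaged 10.9, also without overlap, and resting cells 1.18. So by CPM Sp7 was higher in prehypertrophic or hypertrophic-like than in perichondrium-like cells, the reverse of the Runx2 means. This order was not seen in shares of thinned cells, given below. The 939 Sp7 UMIs were spread over osteoprogenitor-like (26.2%), proliferative (22.6%), perichondrium-like (21.7%) and prehypertrophic or hypertrophic-like cells (16.1%).

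Alpl and Dlx5 followed the order of Runx2 at its top. Alpl was 372, 422 and 390 CPM in the osteoprogenitor-like cells of tdT+ 1, tdT+ 2 and tdT- 2, a mean of 395 ± 26 (SD, n = 3), and ran from 137 to 194 in perichondrium-like cells (168 ± 28, n = 4). No libraries of the 2 groups overlapped, nor did perichondrium-like cells and the third group in order, cluster 11 (75.0), whose leading genes include Crabp1, Otor and Twist2. Alpl was 27.0 in prehypertrophic or hypertrophic-like and 0.418 in resting cells, so that 50.6% of its 2784 UMIs were in perichondrium-like and 23.6% in osteoprogenitor-like cells. Dlx5 showed the shallowest gradient, with 183 ± 13 CPM (n = 3) in osteoprogenitor-like and 120 ± 9 (n = 4) in perichondrium-like cells, ranges that did not overlap. It then passed through cluster 11 (75.8) and prehypertrophic or hypertrophic-like cells (42.3), each overlapping its neighbours, to 5.43 in resting cells.

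Most Ifitm5 came from 2 small groups of cells. Osteoprogenitor-like cells held 135 CPM in tdT+ 1, 478 in tdT+ 2 and 189 in tdT- 2, and prehypertrophic or hypertrophic-like cells 146 in tdT- 1, 152 in tdT+ 2 and 193 in tdT- 2. These ranges overlapped, and the tdT+ 2 osteoprogenitor-like cells stood highest. The next group in the order, proliferative chondrocyte-like cells, averaged 4.65 and did not overlap them, while perichondrium-like cells, second for Runx2, Alpl and Dlx5, were eleventh of 12 groups at 1.5, 0, 3.37 and 0.883 CPM in tdT+ 1, tdT- 1, tdT+ 2 and tdT- 2. Of 1254 Ifitm5 UMIs, 536 (42.7%) were in osteoprogenitor-like, 507 (40.4%) in prehypertrophic or hypertrophic-like and 18 (1.44%) in perichondrium-like cells.

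**Figure D1:**
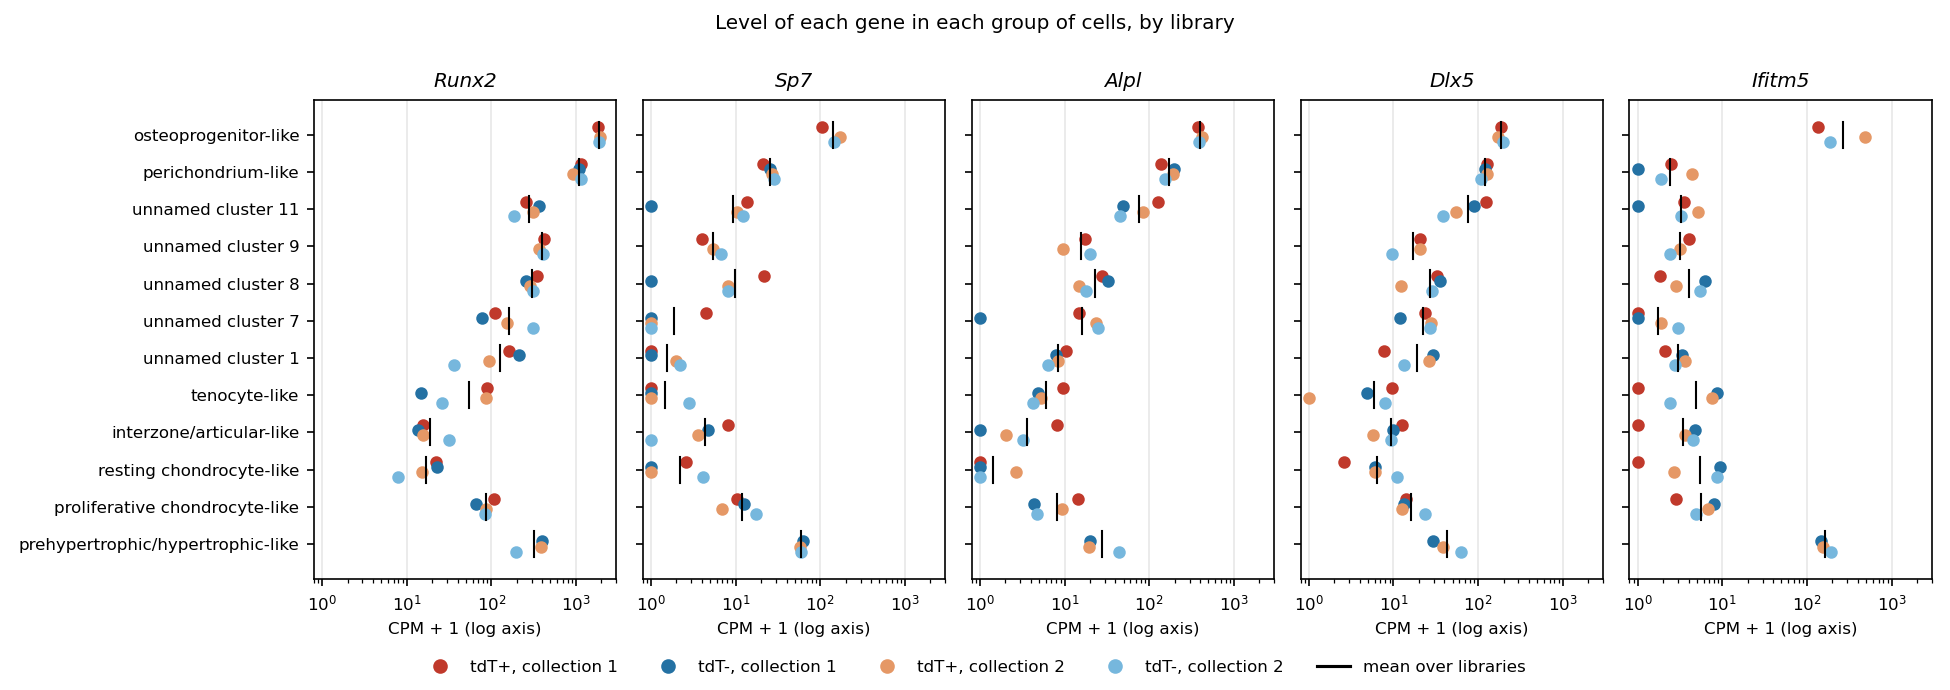
Level of each gene (x axis, CPM + 1 on a log scale) in 12 groups of cells (y axis), with a point for each library of 5 or more cells and a line at the mean over libraries. Runx2, Alpl and Dlx5 are highest in osteoprogenitor-like and second in perichondrium-like cells, Sp7 has its second highest level in prehypertrophic or hypertrophic-like cells, and Ifitm5 stands high in osteoprogenitor-like and prehypertrophic or hypertrophic-like cells, with perichondrium-like cells at 1.44 CPM.

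**Figure D2:**
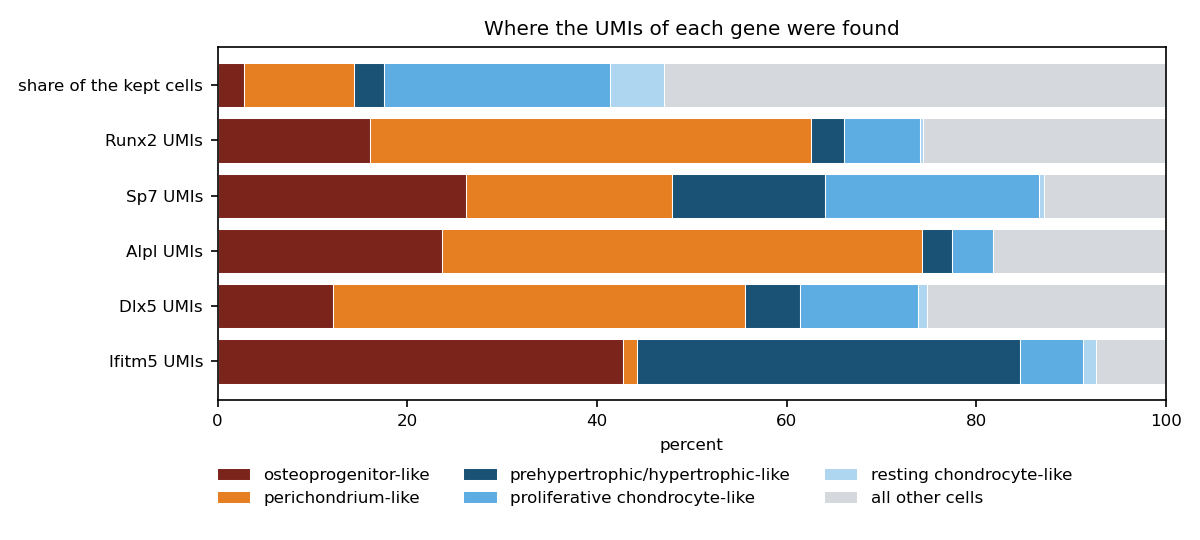
Share (x axis, percent) of the kept cells and of each gene's UMIs found in osteoprogenitor-like, perichondrium-like, the chondrocyte-like groups and all other cells, with 1 stacked bar per gene. Perichondrium-like cells hold 46.4% of Runx2 and 50.6% of Alpl UMIs but 1.44% of Ifitm5 UMIs, and Sp7 UMIs are spread over 4 groups.

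The share of cells with at least 1 UMI was compared after thinning every cell to 3000 UMIs, which left out 101 shallower cells in all. Intervals are exact binomial 95% limits and, like all intervals here, cover counting error only. Runx2 was found in 95.9% (88.6 to 99.2) of thinned osteoprogenitor-like cells, 80% (75.1 to 84.3) of perichondrium-like, 38.8% (28.1 to 50.3) of prehypertrophic or hypertrophic-like, 17.9% of proliferative and 7.24% of resting cells. It was found in 4.0% of tenocyte-like cells, which were taken as a cell type that should lack these genes. For Runx2 they were not empty, with 53.0 CPM and a UMI in 30.4% of unthinned cells, against 21.4% of unthinned resting cells. Alpl was found in 59.5% (47.4 to 70.7) and 31.6% (26.5 to 37.1) of the first 2 groups and in 8.75% of prehypertrophic or hypertrophic-like cells, against 0 of 125 tenocyte-like cells, a count that allows up to 2.4% of cells with a UMI at this depth (3 counts of the total) and sets no limit on cells expressing the gene. Unthinned, 7.2% of tenocyte-like cells had an Alpl UMI. Sp7 was found in 35.1%, 7.74% and 5.00% of the same 3 groups and in none of the 125 tenocyte-like cells, so the CPM order of the latter 2 groups was not shown by shares at this depth. Dlx5 shares were closer, at 33.8% of osteoprogenitor-like and 29.0% of perichondrium-like cells with overlapping intervals, against 15% of prehypertrophic or hypertrophic-like and 0.8% of tenocyte-like cells.

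Ifitm5 was found in 31.1% (20.8 to 42.9) of thinned osteoprogenitor-like and 35% (24.7 to 46.5) of prehypertrophic or hypertrophic-like cells. In perichondrium-like cells it was found in 1 of 310 thinned cells (0.323%) and in 15 of 311 unthinned cells (4.82%), at or below the 1.6% and 5.6% of tenocyte-like cells, and is read there as background. Unthinned shares were 100% for Runx2, 71.1% for Sp7, 86.8% for Alpl, 78.9% for Dlx5 and 60.5% for Ifitm5 in osteoprogenitor-like cells, and 98.7%, 35%, 71.1% and 74.3% for the first 4 in perichondrium-like cells. Median depths were 18749 UMIs in osteoprogenitor-like, 26059 in perichondrium-like, 14677 in prehypertrophic or hypertrophic-like, 22842 in resting and 25624 in tenocyte-like cells.

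**Figure D3:**
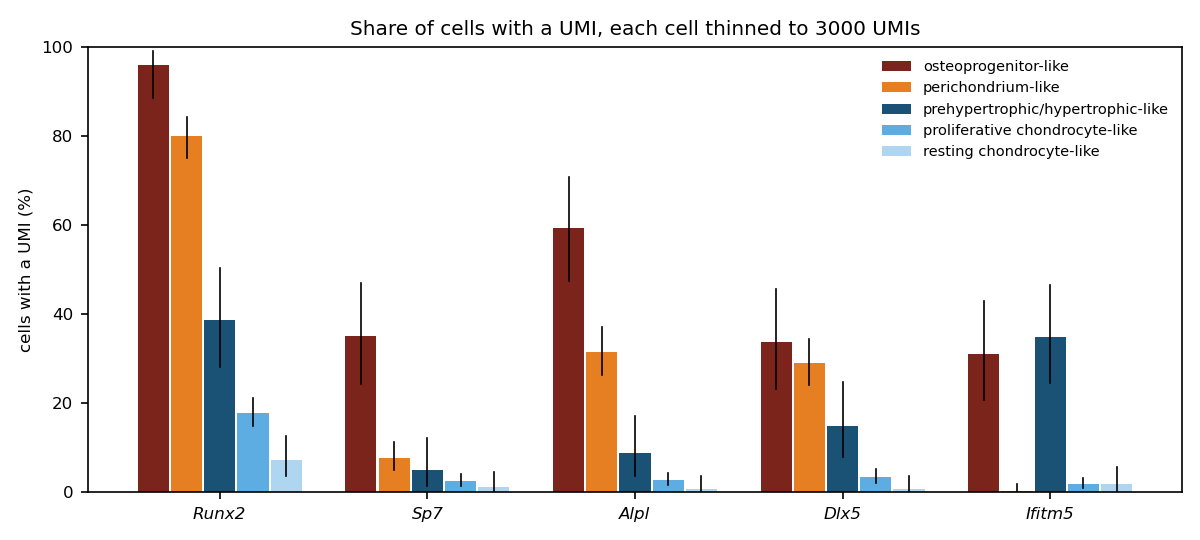
Percent of cells with at least 1 UMI of each gene (y axis) after thinning each cell to 3000 UMIs, with exact binomial 95% limits as lines. The groups are osteoprogenitor-like, perichondrium-like and prehypertrophic or hypertrophic, proliferative and resting chondrocyte-like cells. Runx2 is found in 95.9% of osteoprogenitor-like and 80% of perichondrium-like cells, whereas Ifitm5 is found in 31.1% and 0.323% of them.

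Detection of several of the 5 genes in the same cell, counted without thinning, separated the groups further. At least 3 of the 5 were found in 89.5% of osteoprogenitor-like, 66.9% of perichondrium-like, 56.5% of prehypertrophic or hypertrophic-like and 0% of resting cells. All 5 were found in 27 of 76 osteoprogenitor-like cells, 11 of 85 prehypertrophic or hypertrophic-like cells and 3 of 311 perichondrium-like cells. Within perichondrium-like cells, Alpl was present in 89.0% of the 109 cells with an Sp7 UMI and in 61.4% of the 202 without, at similar median depths of 26614 and 25382 UMIs, and Dlx5 in 84.4% and 68.8%. Sp7 in turn was present in 43.9% of perichondrium-like cells with an Alpl UMI and 13.3% of those without. In osteoprogenitor-like cells, the cells without an Sp7 UMI had a median of 6267 UMIs against 24999 with, so detection and depth moved together there. The same held in prehypertrophic or hypertrophic-like cells, with medians of 12555 UMIs without and 55462 with an Sp7 UMI.

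Over 21 groups of cells and 12767 genes, likeness was measured as Pearson's correlation of log2(CPM + 1) over the groups, as a description in which groups share libraries and differ in depth. The genes most like Runx2 were Nell2 (0.825), Podnl1 (0.822), Entpd3 (0.767) and Slc25a13 (0.761). For Sp7 they were Hrc (0.819), Bmp2 (0.772), Dlx6os1 (0.745) and Chst1 (0.737). Alpl was most like Mmp9 (0.889), Thy1 (0.849), Tnfsf11 (0.839) and Dlx6 (0.793), and Dlx5 like Clec11a (0.858), Dlx6 (0.849), Tnfsf11 (0.844) and Palm3 (0.827). Tnfsf11 encodes RANKL, the signal for osteoclast formation, and Mmp9 a protease best known from osteoclasts. Ifitm5 was most like Mef2c (0.861), a factor of chondrocyte hypertrophy, Pltp (0.858), Slc13a5 (0.843), a citrate carrier, and Smpd3 (0.816). Among the members, Alpl and Dlx5 were closest (0.786), Runx2 reached 0.701 to 0.711 with Sp7, Alpl and Dlx5, and Ifitm5 was closer to Sp7 (0.727) than to Runx2 (0.397), Dlx5 (0.351) or Alpl (0.255).

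The comparison of tdT+ with tdT- cells asked which genes differ between recent descendants of Gli1-expressing cells and the rest of the limb. UMIs were summed per library and condition, scaled by edgeR's trimmed mean of M-values (scaled CPM), and tested with edgeR's quasi-likelihood test with condition as covariate and Benjamini-Hochberg adjustment over all genes tested. In these sums, fewer cells of a type and less RNA per cell cannot be told apart.

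Runx2 and Alpl were higher in tdT+ cells. Runx2 stood at 495 scaled CPM in p21 and 398 in control cells of tdT+ 1 and at 288 and 433 in tdT+ 2. The tdT- sums held 264 and 158 in tdT- 1 and 183 and 179 in tdT- 2. Every tdT+ sum was above every tdT- sum, with means of 404 ± 87 and 196 ± 47 (SD, n = 4 each), a log2 difference of 1.06 ± 0.18 (SE) and an adjusted p of 0.0218 by edgeR's quasi-likelihood test. Alpl stood at 67.4 and 51.1 in p21 and control cells of tdT+ 1, 53.8 and 66.4 in tdT+ 2, 38.5 and 18.3 in tdT- 1, and 21.1 and 20.2 in tdT- 2. These groups did not overlap either, with means of 59.6 ± 8.4 and 24.5 ± 9.4 (SD, n = 4 each), a log2 difference of 1.38 ± 0.19 (SE) and an adjusted p of 0.0115 by edgeR. The exact two-sided permutation p of each was 0.0286, the smallest that 4 values against 4 allow. Of 14426 genes tested, 1.84% passed in either direction, and 10.2% had groups that did not overlap. The differences within collections 1 and 2 were 1.12 and 0.96 for Runx2 and 1.14 and 1.51 for Alpl on the log2 scale. Each collection compares 1 tdT+ with 1 tdT- library of the same embryos, so these are given as effect sizes only. Runx2 lost its call in 6 of 8 fits that each left out a single sum, with a highest adjusted p of 0.0913 in edgeR, and kept it without the p21 cells of tdT- 1 or of tdT+ 2, whereas Alpl passed in 8 of 8.

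Dlx5 was 58.8 and 47.3 scaled CPM in p21 and control cells of tdT+ 1, 31.7 and 61.0 in tdT+ 2, 38.0 and 20.2 in tdT- 1, and 22.2 and 34.6 in tdT- 2. The p21 cells of tdT+ 2 lay within the tdT- range, and the log2 difference of 0.83 ± 0.24 (SE) did not pass (adjusted p = 0.114 by edgeR, exact permutation p = 0.0857). With the embryo pool as a replicate block, which pairs the fractions of the same embryos, it was 0.77 and passed (adjusted p = 0.0167 by edgeR), as it did unpaired without the p21 cells of tdT+ 2 (1.01, adjusted p = 0.0273 by edgeR). Sp7 and Ifitm5 had means of 14.9 and 17.3 in tdT+ against 13.2 and 15.4 in tdT- sums, log2 differences of 0.19 ± 0.20 and 0.11 ± 0.37 (SE), and adjusted p of 0.681 and 0.933 by edgeR.

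The make-up of the sorted cells moved with these results. Perichondrium-like cells were 27.1% of p21 and 20.4% of control cells in tdT+ 1 and 10.1% and 26.3% in tdT+ 2, against 12.1% and 4.12% in tdT- 1 and 3.39% and 8.61% in tdT- 2. Osteoprogenitor-like cells ran from 1.30% to 5.68% of the tdT+ and from 0% to 2.20% of the tdT- sums. Prehypertrophic or hypertrophic-like cells, rich in Sp7 and Ifitm5, went the other way, at 0% to 1.84% of tdT+ and 4.53% to 8.13% of tdT- sums. Within perichondrium- and osteoprogenitor-like cells alone, where 0.01% of 9982 genes passed in edgeR (1 gene, 509 at an unadjusted p under 0.05) and 3.21% had groups that did not overlap, none of the 5 did either, and the log2 differences were -0.06 ± 0.12 (SE) for Runx2, 0.00 ± 0.19 for Alpl, 0.02 ± 0.19 for Dlx5, -0.12 ± 0.29 for Sp7 and 1.2 ± 0.76 for Ifitm5. For Runx2 and Alpl, which passed over all cells, and for Dlx5, which did not, no difference was detectable within these groups. The tdT- 1 sums there held 13 p21 and 10 control cells, and the part of cell make-up was not tested.

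**Figure D4:**
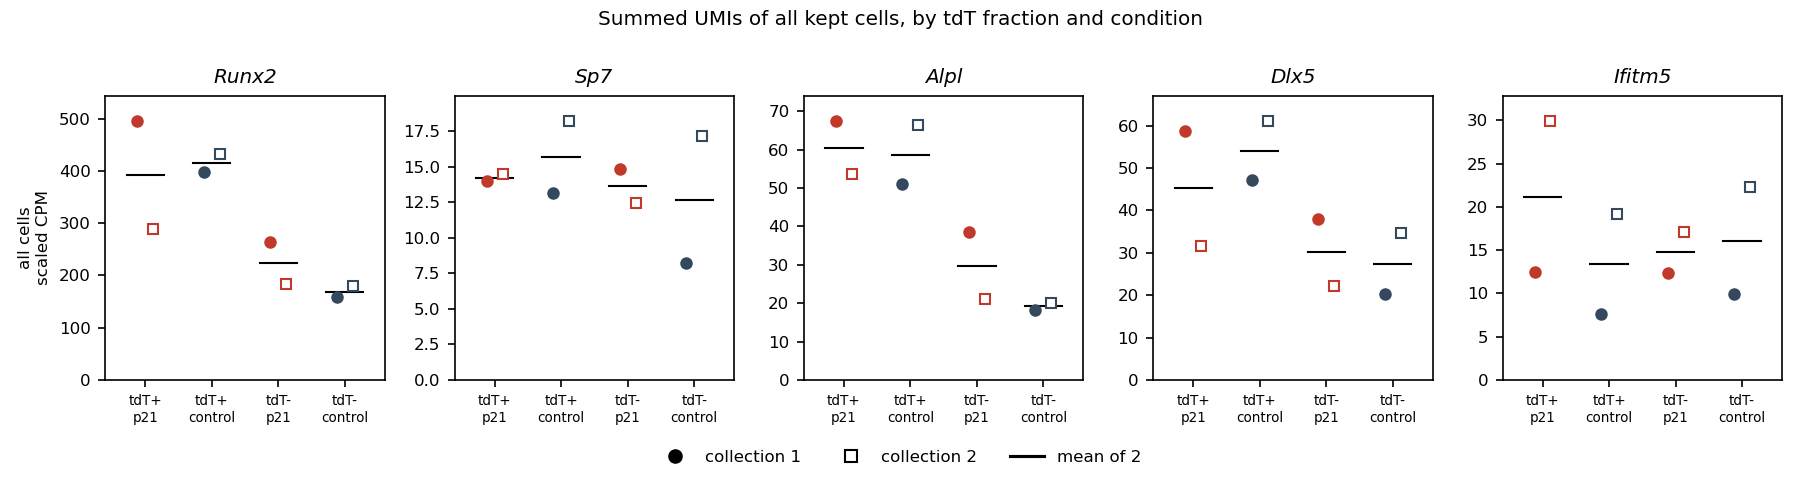
Scaled CPM (y axis) of each gene in the UMIs summed over all cells of a library and condition, by tdT fraction and condition, with points for the 2 collections and a line at their mean. All 4 tdT+ values of Runx2 (288 to 495) and Alpl (51.1 to 67.4) lie above all 4 tdT- values (158 to 264 and 18.3 to 38.5), and the p21 and control values of all 5 genes overlap.

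Within chondrocyte-like cells (proliferative, resting and prehypertrophic or hypertrophic-like summed), 0.0176% of 11343 genes passed between fractions in edgeR and 2.47% had groups that did not overlap, and none of the 5 did either. Sp7 came closest, at 11.3 and 7.83 scaled CPM in p21 and control cells of tdT+ 1, 10.6 and 6.87 in tdT+ 2, 19.2 and 10.4 in tdT- 1 and 20.6 and 24.0 in tdT- 2. Only the control cells of tdT- 1 fell within the tdT+ range, and the log2 difference was -1.05 ± 0.26 (SE, p = 0.00182 unadjusted and 0.789 adjusted in edgeR, exact permutation p = 0.0857). Without the prehypertrophic or hypertrophic-like cells it was -1.11. The log2 differences of the others were 0.16 ± 0.15 for Runx2, 0.17 ± 0.45 for Alpl, -0.72 ± 0.31 for Dlx5 and -0.74 ± 0.46 for Ifitm5.

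The comparison of p21 with control cells asked how the limb responds early to p21 expression in its cartilage, with tdT fraction as covariate. Over all cells none of the 5 genes passed edgeR's test, in which 0.0416% of 14426 genes did (6 genes, 1036 at an unadjusted p under 0.05) and 3.49% had groups that did not overlap. The log2 differences were 0.14 ± 0.18 (SE) for Runx2, 0.22 ± 0.18 for Alpl, -0.07 ± 0.20 for Sp7, -0.16 ± 0.24 for Dlx5 and 0.33 ± 0.37 for Ifitm5, with adjusted p of 0.878 or more, and the groups overlapped for all 5. The collections, which exchange the sexes, differed in sign for 4 genes. Collection 1 gave 0.51 for Runx2, 0.63 for Alpl, 0.38 for Sp7 and 0.53 for Dlx5, and collection 2 gave -0.29, -0.15, -0.40 and -0.81 (adjusted p of 0.0904 or more in edgeR). Ifitm5 was 0.54 and 0.14.

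Among perichondrium- and osteoprogenitor-like cells 0% of 9982 genes passed in edgeR (403 at an unadjusted p under 0.05, with 2 passing in DESeq2 and 0 in limma voom). For Alpl, p21 and control cells held 177 and 140 scaled CPM in tdT+ 1, 225 and 200 in tdT- 1, 279 and 205 in tdT+ 2, and 251 and 135 in tdT- 2. It was higher in p21 cells in 4 of 4 libraries, and the share of all genes higher in all 4 was not counted. The groups overlapped (2.79% of genes had groups that did not), with means of 233 ± 43 and 170 ± 38 (SD, n = 4 each) and a log2 difference of 0.46 ± 0.19 (SE, p = 0.0281 unadjusted and 1.00 adjusted in edgeR, exact permutation p = 0.114). It was 0.28 in collection 1 and 0.66 in collection 2, and 0.34 in perichondrium-like cells alone, where Alpl was higher in p21 cells in 3 of 4 libraries (191 against 196 CPM in tdT- 1). Osteoprogenitor-like cells, where Alpl is highest, were 14.1% of the p21 and 6.0% of the control cells of this set in tdT+ 1, 15.4% and 0% in tdT- 1, 35.9% and 14.3% in tdT+ 2, and 29.7% and 5.26% in tdT- 2, and their part in the result over both groups was not tested. In the same set 4 of 6 osteoclast markers had UMIs (Ocstamp and Atp6v0d2 were at 0), with summed levels of 117 to 147 CPM in p21 and 73.5 to 139 in control cells. Of 7 endothelial markers 6 had UMIs (Tie1 was at 0), at 67.2 and 60.2 CPM in the p21 cells of tdT+ 2 and tdT- 2 and 23.3 to 33.8 in the other 6 sums, and 7 of 8 immune markers summed to 4.26 to 7.27. Chondrocyte markers (9 of 9 with UMIs) were higher in p21 cells in 4 of 4 libraries, at 1592 and 840 CPM in tdT+ 1, 2687 and 1388 in tdT- 1, 1481 and 1196 in tdT+ 2, and 2841 and 1745 in tdT- 2. The part of such cells or their RNA was not tested.

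Ifitm5 in the same set was 8.78 scaled CPM in p21 and 25.9 in control cells of tdT+ 1, 10.4 and 0 in tdT- 1, 144 and 52.1 in tdT+ 2, and 56.2 and 15.9 in tdT- 2. The spread within each condition was wider than the difference between them (log2 difference 1.17 ± 0.70 SE, adjusted p = 1.00 in edgeR). It passed in collection 2 alone (1.57, adjusted p = 0.0375 in edgeR) and, with no filter on low counts, over both (1.18, adjusted p = 0.000513 in edgeR). Each of these fits called more genes in all than the main fit, and the counts are given in the closing section. The fit of collection 2 rested on 1 embryo pool a condition. Runx2, Sp7 and Dlx5 gave log2 differences of 0.17 ± 0.12, 0.15 ± 0.28 and -0.10 ± 0.18 (SE), and Sp7 turned to -0.17 in perichondrium-like cells alone.

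Within osteoprogenitor-like cells, 3 libraries held cells of both conditions and no test was made, because control cells numbered 3 in tdT+ 1, 12 in tdT+ 2 and 1 in tdT- 2. Sp7 was 77.2 CPM in p21 and 231 in control cells of tdT+ 1, 155 and 205 in tdT+ 2, and 131 and 262 in tdT- 2, where the last control value rests on 9 UMIs (exact Poisson 95% interval 120 to 498). Dlx5 was 157 and 318, 130 and 243, and 179 and 320 in the same order. Sp7 and Dlx5 were lower in the p21 cells of each of the 3 libraries, of which tdT- 2 held 1 control cell. The share of all genes lower in all 3 was not counted. Alpl was 335 and 548, 466 and 343, and 366 and 583, with p21 cells lower in 2 of 3. Runx2 was 1775 and 2179, 1594 and 2563, and 2041 and 320, and Ifitm5 41.6 and 592, 559 and 330, and 183 and 233, each lower in p21 cells in 2 of 3. The 37 p21 cells of tdT+ 2 had a median of 7968 UMIs, and the part of depth in these values was not tested.

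The p21 transgene is driven in chondrocytes, and the paper reports p21 in only a part of them at this stage. Cells with and without it were not separated here. In chondrocyte-like cells 0.388% of 11343 genes passed in edgeR (44 genes, 9 higher and 35 lower in p21 cells) and 6.57% had groups that did not overlap. None of the 5 members passed and all had overlapping groups. Runx2 was 0.03 ± 0.15 (log2 difference ± SE), Alpl 0.24 ± 0.45, Dlx5 -0.08 ± 0.31 and Sp7 0.33 ± 0.26. Ifitm5 stood at 40.4 scaled CPM in p21 and 2.61 in control cells of tdT+ 1, 20.3 and 15.4 in tdT- 1, 20.4 and 11.9 in tdT+ 2, and 32.1 and 38.0 in tdT- 2, a log2 difference of 0.80 ± 0.46 (SE, adjusted p = 0.573 in edgeR). With no filter on low counts Ifitm5 passed (0.82, adjusted p = 0.00627 in edgeR), in a fit that called more genes in all than the filtered fit. Its largest gap, in tdT+ 1, rested on 68 UMIs in p21 cells. The prehypertrophic or hypertrophic-like cells of that library were 2 p21 cells, with a median of 102791 UMIs, and 0 control cells. Such cells were 4.35% of p21 and 0% of control chondrocyte-like cells there, against 14.3% and 8.94% in tdT- 1. In tdT+ 2 they were 6.52% and 3.92%, and in tdT- 2 13% and 18.3%. The part of the 2 deep cells of tdT+ 1 in the difference was not tested. Whether the difference between p21 and control cells itself changed with tdT fraction was tested as an interaction over all cells. 0% of 15275 genes passed in edgeR (568 at an unadjusted p under 0.05, with 6 passing in DESeq2 and 0 in limma voom), and the members had interactions of -0.48 ± 0.34 (log2, SE) for Runx2, -0.16 ± 0.42 for Sp7, -0.45 ± 0.36 for Alpl, -0.28 ± 0.50 for Dlx5 and 0.77 ± 0.73 for Ifitm5.

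**Figure D5:**
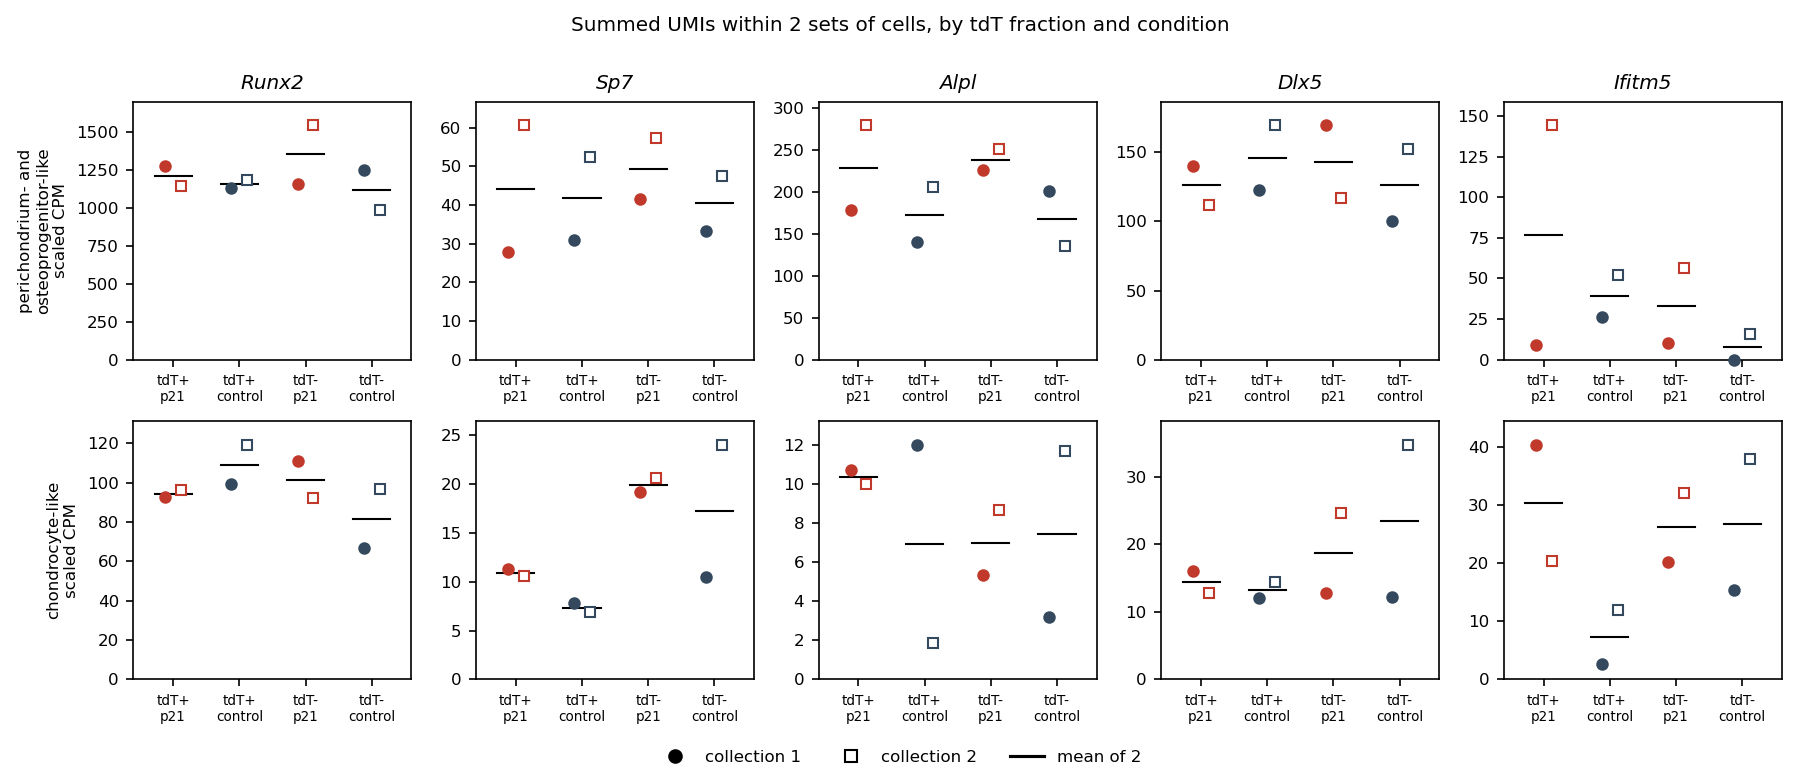
Scaled CPM (y axis) of each gene in the UMIs summed over perichondrium- and osteoprogenitor-like cells (top) and chondrocyte-like cells (bottom), by tdT fraction and condition, with points for the 2 collections and a line at their mean. Alpl in the top row is higher in p21 than in control cells within each of the 4 libraries (for example 251 against 135 in tdT- 2), with overlapping groups. The share of all genes higher in all 4 was not counted. Sp7 in the bottom row averages 9.14 in tdT+ and 18.6 in tdT- sums.

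The wider osteoblast programme was followed with 4 lists that leave out the 5 members. Of 21 transcription factors and partners, 21 were tested between tdT+ and tdT- cells over all cells, 2 passed, and both were higher in tdT+ cells, beside 1.84% of all genes passing (157 higher and 109 lower). They were Cbfb, the subunit that partners Runx2 on DNA (log2 difference 0.55 ± 0.09 SE, adjusted p = 0.0161 in edgeR), and Twist2, a factor that restrains Runx2 activity (1.08 ± 0.18 SE, adjusted p = 0.0211 in edgeR). The list's median was 0.04, beside -0.01 over all genes. Among matrix and mineralization genes 20 of 25 were tested and 1 passed: Serpinf1, a secreted protein required for normal bone mineral (0.53 ± 0.08 SE, adjusted p = 0.0152 in edgeR). Col1a1, the main bone collagen, was 0.63 ± 0.16 (SE, adjusted p = 0.0792 in edgeR).

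Among bone-forming signals and their responders 25 of 26 were tested and 2 passed (1.84% of all genes did), Ptch1, a hedgehog receptor and target (0.49 ± 0.06 SE, adjusted p = 0.0101 in edgeR), and Wnt5a (0.76 ± 0.11 SE, adjusted p = 0.0133 in edgeR). None of Ifitm1, Ifitm2, Ifitm3, Ifitm10 (other genes of the Ifitm5 family) and Fkbp11 (whose product binds the Ifitm5 protein) passed. Between fractions within perichondrium- and osteoprogenitor-like cells, 0 genes of the 4 lists passed in edgeR, beside 0.01% of all genes. Within chondrocyte-like cells 0 passed too, beside 0.0176% of all genes. The part of cell make-up in the calls over all cells was not tested. In the p21 comparison 1 gene of the 4 lists passed, in chondrocyte-like cells: Hey1, a Notch target that can repress Runx2 activity, was higher in p21 cells (0.83 ± 0.13 SE, adjusted p = 0.0208 in edgeR), beside 0.388% of all genes passing there. Of the matrix and mineralization genes, 14 of 15 tested in perichondrium- and osteoprogenitor-like cells had a positive p21 difference (49.3% of all genes did), with a median of 0.20 (0.00 over all genes), and 0 passed, Col1a1 being 0.26 ± 0.14 (log2, SE). The larger share of osteoprogenitor-like cells and the higher chondrocyte markers among the p21 cells of this set, given above, moved with this count, and their part was not tested.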

How the data were processed

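Hindlimb cells of 4 libraries were measured with the 3' droplet chemistry (10x Genomics v3.1). The deposited values are raw UMI counts per gene and barcode, which the authors made with Cell Ranger 7.2.0 (submitters' processing notes) on GRCm38/mm10 with the added features tdt, CreERT2 and WPRE. Whether intronic reads were counted is not given in the sources used here, and levels are not compared between genes. The study's methods name removal of free RNA and of doublets, and nothing in the deposited counts shows either.

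Barcodes were kept from 1000 UMIs and 500 genes up, with mitochondrial UMIs of 10% at most. Each was assigned to a condition by Xist against 4 Y-linked genes (at least 2 UMIs, 80% of them on 1 side), which left out 40 to 132 mixed and 178 to 2747 uninformative barcodes a library. Scrublet's own threshold marked 0 to 3 cells a library and so did not work here, and the top 5% of scores among barcodes of 3000 or more UMIs were left out instead. Cells were clustered with scanpy 1.11.5 (2000 variable genes, 30 principal components, 15 neighbours, Leiden resolution 1) without 558 genes (the members, sex genes, transgenes, histone and cell-cycle genes), giving 19 clusters. A cluster was named from marker lists needing 3 or more markers (found in 10% of its cells, 1.5-fold over the rest). These thresholds, and 18 immune- or endothelial-like cells set apart, were chosen after the data were seen. The members and gene lists were chosen with earlier results of these data known.

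UMIs were summed per library and condition into 8 sums and tested in edgeR 4.0.16 (filterByExpr, TMM, quasi-likelihood, threshold 0.05 after Benjamini-Hochberg adjustment), with DESeq2 1.42.0 and limma 3.58.1 (voom) as alternatives. Each SE given with an edgeR difference is the absolute log2 difference divided by the square root of the test's F statistic. The scripts were tested on simulated data. Single values were also compared by exact two-sided permutation over the sums. Replicates share a collection. The fractions of a pool come from the same animals, and p21 and control cells of a library share its preparation. The main fits and the permutations did not pair them, and only the alternative fits with a replicate block did. Over 14426 genes the correlation of paired deviations from the group means was 0.196 and 0.0914 for control pools, 0.0924 and 0.315 for p21 pools, and -0.0292 to 0.292 for libraries.

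The text names the 5 members in every comparison, of each fixed list the genes that passed and otherwise at most 3 with the lowest p, and for each member the 4 genes most like it. The study's methods list 2 p21 male, 2 control male, 2 control female and 1 p21 female embryo, whereas its results give more embryos a pool. Other alternatives were another count minimum, kept doublet scores, Leiden resolution 2, 1 collection at a time, and each sum left out in turn.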

Additional observations from a re-analysis of the deposited data

Results flagged for a closer look

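Of 85 groups of 4 values of the 5 genes, 6 held a sample whose gap to its nearest neighbour was large for the range of its group. Chance gives about 1 in 20 for independent values with a normal spread. Counts near the floor are not such values, and the same sums entered groups by condition and by fraction. Over all cells, Alpl in the tdT- sums was highest in the p21 cells of tdT- 1 at 38.5 scaled CPM, with the next at 21.1 and the lowest at 18.3. In chondrocyte-like cells, Dlx5 in the control sums was highest in tdT- 2 at 34.8, with the next at 14.4 and the lowest at 12. Over libraries, Dlx5 in proliferative chondrocyte-like cells was likewise highest in tdT- 2 at 22.8 CPM, next to 13 and 11.8. Runx2 in interzone or articular-like cells was highest in tdT- 2 at 30.4 CPM, next to 14.6 and 12.6. Alpl in resting chondrocyte-like cells was 1.67 CPM in tdT+ 2 and 0 in the other 3 libraries. Sp7 in tenocyte-like cells was 1.84 CPM in tdT- 2 and 0 in the other 3. Of 15 pairs of a member and a set of cells, 0 had p21 differences of opposite direction in every library of the 2 tdT fractions.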

How the results depend on the processing

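Of 659 alternative values of the 5 members in the comparisons, 573 kept direction and side of the threshold, 69 changed sign, 11 passed where the reported value did not and 6 no longer passed. Of 200 alternative levels, 190 moved by less than the spread between libraries. The cause of each change was not tested. Sums of 10 to 103 perichondrium- and osteoprogenitor-like cells limit Ifitm5 (0 to 326 UMIs a sum) and Sp7 (9 to 137), and 2 embryo pools a condition limit every p21 comparison.

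Genes that passed in the p21 comparison over all cells numbered 54 in DESeq2, 12 in limma voom, 462 with no filter on low counts, 2 without the covariate, 0 with fractions of a pool summed, 19 in collection 1 and 38 in collection 2. Among perichondrium- and osteoprogenitor-like cells they numbered 2 in DESeq2, 129 with no filter, and 9 and 18 in collections 1 and 2. In chondrocyte-like cells they numbered 134, 85 in voom, 483 with no filter, 16 with fractions summed, and 129 and 366 in the collections. Between tdT fractions over all cells DESeq2 gave 607, no filter 1663 and collection 2 87. Within perichondrium- and osteoprogenitor-like cells DESeq2 gave 16, no filter 147, the replicate block 3, conditions summed 6, collection 2 6 and Leiden resolution 2 3. In chondrocyte-like cells DESeq2 gave 7, no filter 145, the replicate block 8, the collections 9 and 46, and cells without the hypertrophic cluster (added after the data were seen) 1. For the interaction DESeq2 gave 6 and no filter 153. Every fit of 1 collection rested on 1 embryo pool a condition and 1 library a fraction. The replicate block changed no other call of a member than that of Dlx5 between fractions (0.77, adjusted p = 0.0167 in edgeR), which also passed in DESeq2 (0.80, adjusted p = 0.0314), with conditions of a library summed (0.88, adjusted p = 0.0310 in edgeR) and with no filter (0.84).

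Log2 differences that changed sign in the p21 comparison were, over all cells, Runx2 -0.29 and Alpl -0.15 in collection 2, and Sp7 0.38 and Dlx5 0.53 in collection 1. In perichondrium- and osteoprogenitor-like cells they were Sp7 -0.17 in perichondrium-like cells alone (added after the data were seen) and Dlx5 0.42 in collection 1. In chondrocyte-like cells they were Runx2 -0.18 in collection 2, Dlx5 0.25 in collection 1 and 0.0087 in voom, and Runx2 -0.078, Alpl -0.15 and Dlx5 0.054 at resolution 2. Between fractions, Ifitm5 was -0.18 over all cells in collection 1. In perichondrium- and osteoprogenitor-like cells Runx2 was 0.0062 with no filter, 0.0010 in collection 1 and 0.17 at resolution 2, Sp7 0.12 in collection 2 and 0.014 at resolution 2, and Dlx5 -0.015 in collection 1 and -0.036 with high doublet scores kept. Alpl there was -0.010 in DESeq2, -0.020 in voom, -0.0045 with the replicate block, -0.018 without the covariate, -0.042 with conditions summed, -0.42 in collection 1, -0.053 with high doublet scores kept and -0.024 in perichondrium-like cells alone. In chondrocyte-like cells Alpl was -0.51 in collection 2 and -0.47 at resolution 2, and Dlx5 0.13 in collection 1. With no filter Ifitm5 passed within both sets of cells, in the p21 comparison and between fractions, and Sp7 passed between fractions of chondrocyte-like cells.

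Leaving out each sum in turn gave 1 to 9 genes for p21 over all cells, 0 to 2 in perichondrium- and osteoprogenitor-like and 5 to 51 in chondrocyte-like cells, and 34 to 741, 0 to 4 and 1 to 3 between fractions. In the p21 comparison the members that changed sign ran, over all cells, from -0.011 to 0.33 (Runx2), -0.23 to 0.11 (Sp7), -0.36 to 0.047 (Dlx5) and -0.095 to 0.68 (Ifitm5). In perichondrium- and osteoprogenitor-like cells they ran from -0.16 to 0.44 (Sp7), -0.20 to 0.068 (Dlx5) and -0.24 to 1.91 (Ifitm5), and in chondrocyte-like cells from -0.10 to 0.14 (Runx2), -0.10 to 0.76 (Alpl) and -0.32 to 0.38 (Dlx5). Between fractions they ran from -0.30 to 0.47 (Ifitm5) over all cells and from -0.15 to 0.61 (Alpl) in chondrocyte-like cells. In perichondrium- and osteoprogenitor-like cells they ran from -0.14 to 0.065 (Runx2), -0.39 to 0.12 (Sp7), -0.14 to 0.15 (Alpl), -0.11 to 0.15 (Dlx5) and -0.017 to 2.28 (Ifitm5). For the interaction they ran from -0.82 to 0.25 (Sp7), -0.77 to 0.12 (Dlx5) and -0.032 to 1.59 (Ifitm5). Of the 10 levels that moved, only some are named here, from osteoprogenitor- and perichondrium-like cells. Means over cells of per-cell CPM gave 1995 for Runx2 and 357 for Alpl in osteoprogenitor-like cells. Resolution 2 gave 922 for Runx2 and 102 for Dlx5 in perichondrium-like cells.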
